A study of Mus musculus with 12 samples.

Results

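The genes of mitochondrial oxidative phosphorylation were followed in mouse follicular B cells with and without the receptor GPR174. The members were 84 of the 12837 genes listed in both count tables of the study. They were taken by symbol: every symbol starting with Nduf, Uqcr, Atp5, Cox4i, Cox5, Cox6, Cox7 or Cox8, together with Sdha, Sdhb, Sdhc, Sdhd and Cyc1. By symbol, 40 belonged to complex I, 4 to complex II, 9 to complex III, 14 to complex IV and 17 to complex V. The prefixes also took in 6 genes that encode assembly or accessory factors and not subunits of the finished complexes, namely Ndufaf1, Ndufaf2, Ndufaf3, Ndufaf4, Atp5s and Atp5sl.

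Follicular B cells were sorted as CD21/35- CD23+ cells from the spleens of adult male mice. WT mice (Gpr174+/Y) were compared with mice carrying a germline targeted allele (Gpr174-/Y, KO), in which an in-frame tdTomato reporter takes the place of the coding exon in every cell. Cells were frozen once sorted (0 h) or were first held for 4 h in complete RPMI medium with no stimulus added. Both genotypes had 3 libraries at each time, which gives 4 groups, and both genotypes went through the same sort and medium. The values are raw read counts per gene. Levels are given as CPM, counts scaled to a common library size, after trimmed-mean (TMM) scaling of the library sizes, as mean ± SD (n = 3), and standard errors follow log2 fold changes after ±.

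Oxidative phosphorylation is carried out in the inner mitochondrial membrane. Complex I oxidises NADH and complex II oxidises succinate, and both pass electrons through ubiquinone to complex III, which hands them by way of cytochrome c to complex IV, where oxygen is reduced. Complexes I, III and IV pump protons, and complex V, the ATP synthase, uses the proton gradient to make ATP. Resting lymphocytes draw much of their ATP from this pathway. The nuclear genome encodes all subunits of complex II and most of the others, while a small set of core subunits is encoded by mitochondrial DNA. None of the 13 symbols of the mitochondrially encoded subunits was listed in either table (0 of 13), so the values below concern nuclear genes.

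Library totals ran from 6098941 to 11618787 counts, and the ribosomal RNA precursor row Rn45s took 6.65% to 11.3% of a library. Gpr174 stood at 149.5 to 156.9 CPM in WT 0 h and 73.4 to 76.7 CPM in KO 0 h. At 4 h it stood at 152.6 to 169.1 CPM in WT and 104.8 to 118.3 CPM in KO. It was thus lower in each KO library than in any WT library but did not reach 0. The counts are per gene and do not show whether the KO reads came from the replaced coding exon. Of 11 B cell markers, 9 were listed. They summed to 15896.2 to 17922.4 CPM per library at 0 h and 11572.7 to 14127.8 CPM at 4 h. The 8 listed T cell markers of 11 summed to 17.9 to 35.9 CPM, and the 8 listed macrophage and monocyte markers of 14 to 76.4 to 85.3 CPM at 0 h and 33.2 to 53.5 CPM at 4 h. The 5 listed neutrophil markers of 8 reached 22 to 59.4 CPM in WT 0 h and 40.2 to 125.3 CPM in KO 0 h, and 3 listed erythroid markers of 9 reached 62.7 to 224.3 CPM over all libraries. The 6 listed marginal zone B cell markers of 7 summed to 205.3 to 312.5 CPM, and the 5 listed plasma cell markers of 7, led by Irf4, to 432.9 to 570.7 CPM. The part of these cells in the results below was not tested. In bulk RNA, fewer cells of a type and less RNA per cell cannot be told apart.

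The promoters of the members were searched for short motifs, which the choice by symbol did not use. Each motif was found in a minority of the members, and the shares are descriptions with no test. RefSeq (GRCm38.p6) gave a 300-base window around the start of 72 of the 84 members. The palindrome CGCATGCG, the core of the site bound by NRF1, a regulator of many nuclear genes for respiration, was present in 10 of the 72 (13.9%) and in 2.07% of all 27025 genes with such a window. The cAMP response element TGACGTCA, to which CREB-family factors bind, was present in 4 (5.56%), against 2.03% of all genes. It was searched because GPR174 couples to Gαs, which raises cAMP. The ETS core CCGGAAGT was present in 6.94% of the members and 4.31% of all genes, the E-box CACGTG in 9.72% and 8.09%, CCAAT in 45.8% and 41.1%, and TATAAA in 8.33% and 15.7%. Each motif was searched on both strands, and TGACGTCA also holds the shorter element TGACG, which was present in 34.7% of the members and 23.0% of all genes. Median GC content was 58.0% in the members' windows and 52.7% in all windows, and the median number of CpG dinucleotides was 19.5 and 7. CGCATGCG and TGACGTCA both contain CpG, and the part of CpG content in their shares was not tested.

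The 30-base stretches below lie before the RefSeq start and show the cAMP response element of 3 members, the NRF1 core of 3 members that span the levels measured, and the E-box of Atp5sl, the member on which most of the genotype results turn. Capitals mark the motif, and each sequence reads 5′ to 3′ on the strand of its gene.
Ndufa10, chr1:92473807-92473836, minus strand: acactcagtggTGACGTCAtggcagcgcgc
Ndufa11, chr17:56717593-56717622, plus strand: tttacctttccTGACGTCAcgggcgtctct
Uqcrfs1, chr13:30545327-30545356, minus strand: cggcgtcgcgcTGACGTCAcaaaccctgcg
Cox6a1, chr5:115349101-115349130, minus strand: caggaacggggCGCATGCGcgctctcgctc
Atp5k, chr5:108434430-108434459, minus strand: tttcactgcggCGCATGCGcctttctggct
Atp5g2, chr15:102671070-102671099, minus strand: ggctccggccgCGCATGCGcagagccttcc
Atp5sl, chr7:25619381-25619410, plus strand: ggtgtctgaacCACGTGttaggagggaacg
The fourth member with TGACGTCA was Ndufb2. The windows of Atp5sl held the E-box and CCAAT and none of the other motifs searched, and a match or its absence describes these letters only.

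The oxidative phosphorylation genes were strongly expressed and had short mRNAs. To compare genes with each other, CPM was divided by mRNA length in kb, taken as the median of the gene's basic protein-coding transcripts in GENCODE M21 (mm10), which was found for 83 members. The median level over the 12 libraries was 61.5 CPM per kb in the members and 10.7 CPM per kb over 11898 genes, and 86.7% of the members lay above that median of all genes. Median mRNA length was 755 bases in the members and 2656 bases over all genes. Together the members took 0.569% to 0.654% of the counts of a library.

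Within complex I, Ndufa4, now known as a complex IV subunit, stood highest with 205.9 CPM per kb, followed by Ndufa3 with 193.9 and Ndufa6 with 113.6 CPM per kb. The lowest were Ndufb2 with 8.54, Ndufb4 with 8.10 and Ndufab1, the mitochondrial acyl carrier protein, with 2.36 CPM per kb. This order depends on the length used, which was 2413 bases for Ndufb2 and 2447.5 for Ndufab1, against a member median of 755. Before division by length, Ndufb2 stood at 20.6 CPM, above Ndufs3 at 19.6 CPM. Catalytic core subunits lay between these, with the NADH-binding Ndufv1 at 38.0 and the iron-sulfur subunit Ndufs1 at 27.7 CPM per kb. In complex II the flavoprotein Sdha stood at 101.4 CPM per kb, above the membrane anchor Sdhd at 53.7, the iron-sulfur subunit Sdhb at 52.7 and the membrane anchor Sdhc at 33.2 CPM per kb.

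In complex III the hinge protein gene Uqcrh (345.3 CPM per kb), Uqcr10 (210.5) and Uqcrq (95.6) were highest, and the core protein Uqcrc1 (31.9), the Rieske protein Uqcrfs1 (30.1) and Uqcrb (13.4) were lowest, with cytochrome c1 (Cyc1) at 57.8 CPM per kb. In complex IV Cox6a1 reached 349.9, Cox4i1 267.7 and Cox6b1 177.9 CPM per kb, whereas Cox5a stood at 130.9 and Cox5b at 33.0 CPM per kb. In complex V the F1 subunit genes Atp5e (epsilon, 392 CPM per kb) and Atp5b (beta, 274.5) led, followed by Atp5k (208.8), and the alpha subunit gene Atp5a1 stood at 189.3 CPM per kb. The lowest were the accessory factor Atp5s (7.22), Atp5g2 (4.14) and Atp5g1 (1.29 CPM per kb).

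**Figure D1:**
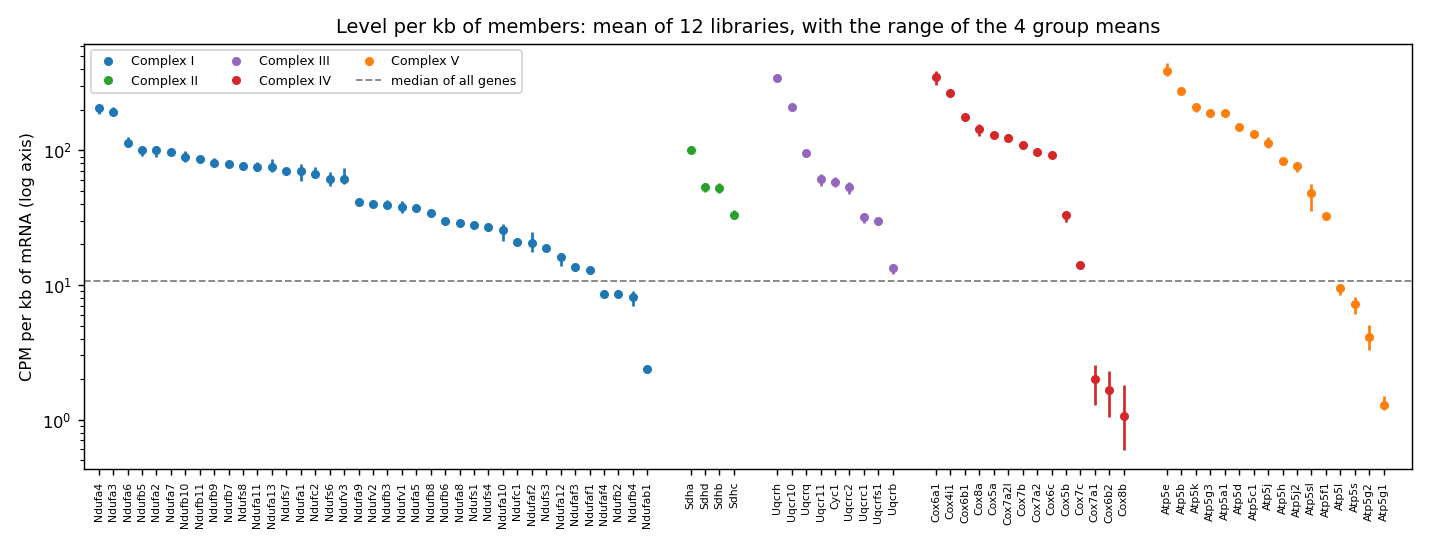
Mean level of single members over 12 libraries in CPM per kb of mRNA (log axis), ordered within complexes I to V, with vertical lines for the range of the 4 group means and a dashed line at the median of all genes (10.7 CPM per kb). Atp5e, Cox6a1 and Uqcrh stood highest, and the tissue-restricted isoforms Cox7a1, Cox6b2 and Cox8b were among the lowest.

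Where a subunit has isoforms, the widely expressed form carried nearly all of the reads. Cox6b1 stood at 177.9 CPM per kb and its testis form Cox6b2 at 1.67, and Cox8a stood at 143.2 CPM per kb and the muscle form Cox8b at 1.06. The muscle form Cox7a1 stood at 2.02 CPM per kb, against 97.7 for Cox7a2 and 124.3 for Cox7a2l, which encodes a factor of respiratory supercomplexes. Cox6b2 (3 to 10 counts per library), Cox7a1 (3 to 12 counts) and Cox8b (0 to 8 counts) fell under the low-count filter, which left 81 members in the tests. Cox4i2, Cox6a2 and Cox8c were not among the genes in both tables, and neither was the hypoxia-induced Ndufa4l2. Atp5g1, Atp5g2 and Atp5g3 encode the same mature c-ring subunit, and Atp5g3 stood at 190.5 CPM per kb, Atp5g2 at 4.14 and Atp5g1 at 1.29 CPM per kb. The length used for Atp5g1 was 2675.5 bases, and before that division it stood at 3.45 CPM, against 2.43 CPM for Atp5g2.

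Some low levels concern genes that cannot be fully separated from copies. Of the 50-base windows of Atp5l, a subunit of the membrane part of the ATP synthase, 84.8% also occurred in another gene's transcript, including 12 pseudogenes, and 39 members had windows that all were unique. For Uqcrb this share was 43.4%, for Ndufs3 39.7%, for Atp5g2 38.3%, for Atp5f1 37.6% and for Ndufb4 37.0%. The levels of these genes are uncertain, since reads that match several places could be dropped in counting. Exons of 29 members overlapped those of another gene, and the strand used in counting was not given.

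The summed level of all members overlapped between the 4 groups. Before culture it was 6177.6, 5974.2 and 6215.9 CPM in the WT libraries and 6083.2, 5902.4 and 6305.1 CPM in the KO libraries. After culture it was 6566.7, 5604.2 and 6268.8 CPM in the WT libraries and 5576.7, 6006.5 and 6198.2 CPM in the KO libraries. The means in this order were 6122.6 ± 129.9, 6096.9 ± 201.7, 6146.6 ± 492.8 and 5927.1 ± 318.3 CPM. The cultured groups spread more widely than the uncultured ones, with WT 4 h replicate 2 and KO 4 h replicate 1 lowest and WT 4 h replicate 1 highest. WT 4 h replicate 1 also had the largest share of Rn45s among the cultured libraries, 11.2% against 6.65% to 8.29% in the others.

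By complex, complex I summed to 1805.3 ± 37 CPM (WT) and 1796 ± 40.3 CPM (KO) at 0 h, and to 1847 ± 126.9 CPM (WT) and 1766.1 ± 101.5 CPM (KO) at 4 h. The sums of complex V were 2128.9 ± 41.9, 2135 ± 113.8, 2095.2 ± 186.3 and 2078.7 ± 108.7 CPM in the same order. For both, every group overlapped every other on this scale. With TMM scaling, neighbouring groups (2 genotypes at a time, or 2 times in a genotype) were apart in complex IV for KO culture and in complex III for the genotypes at 0 h. Complex IV summed to 1069.1 to 1119.8 CPM in KO 0 h and to 907.6 to 1066.4 CPM in KO 4 h, and complex III to 611.2 to 628.4 CPM in WT 0 h and 599.7 to 610.7 CPM in KO 0 h. When libraries were scaled by their totals alone, these means were 1067.1 ± 24.4 and 1032.4 ± 86 CPM for complex IV, and 591.9 ± 14.4 and 592.1 ± 4.9 CPM for complex III. On that scale other groups were apart. Complex I in WT ran from 1678.7 to 1764.7 CPM at 0 h and from 1788.9 to 1951.5 CPM at 4 h, and complex III in WT from 575.4 to 602 and from 613.3 to 702.7 CPM. Complex II ran from 418.4 to 472.6 and from 497.7 to 561.2 CPM in WT, and from 447.2 to 478.6 and from 486.2 to 520 CPM in KO. The order of the group sums over time therefore depended on the scaling.

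**Figure D2:**
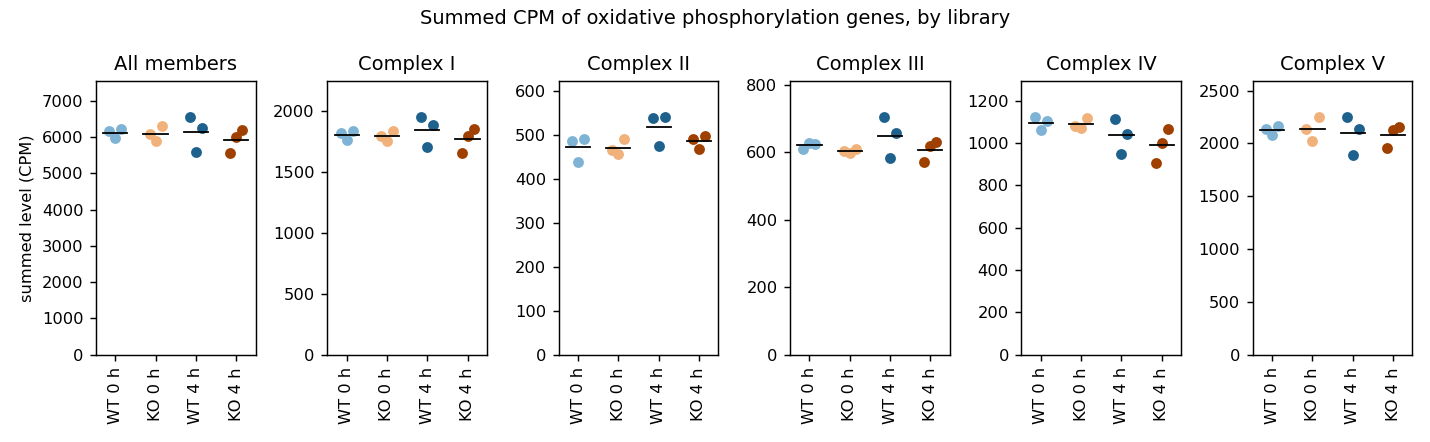
Summed level in CPM of all 84 members and of the members of each complex, with 1 point per library and a line at the mean of 3 libraries. The ranges of the 4 groups overlap for all members together (5576.7 to 6566.7 CPM over all libraries), with a wider spread at 4 h than at 0 h.

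Directly after the sort, no oxidative phosphorylation gene passed the test between WT and KO cells. In edgeR's quasi-likelihood test over 11345 genes, 0 of 81 members had a Benjamini-Hochberg adjusted p under 0.05, against 0.987% of all genes tested. At an unadjusted p under 0.05 there were 11 of 81 members, against 1442 of all 11345 genes, and DESeq2 called 0. The median log2 fold change (WT over KO) was 0.006 in the members and 0 in all genes, with 44 of 81 members above 0. The 95% interval of the fold change lay within ±0.5 on the log2 scale for 72 of the 81 members (88.9%) and for 65.4% of all genes, so changes beyond that size were outside the interval for most members.

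Groups did not overlap for 15 members (18.5%), near the 18.1% of all genes. The lowest p belonged to Ndufv3, an accessory subunit of the NADH-oxidising arm of complex I. Its level was 47.3, 48.3 and 47.2 CPM in WT 0 h and 38.0, 36.7 and 37.2 CPM in KO 0 h, so all WT libraries lay above all KO libraries. The log2 fold change was 0.34 ± 0.086 (edgeR adjusted p = 0.0803), which missed the threshold. Among the central subunits, the difference was 0.03 ± 0.054 for Atp5a1, -0.11 ± 0.058 for Atp5b, -0.02 ± 0.060 for Sdha and -0.10 ± 0.062 for Cox4i1.

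After 4 h of culture, 1 member differed between the genotypes. This was Atp5sl, with 1 of 81 members (1.23%) called against 10.9% of all 11123 genes tested. The symbol places Atp5sl with the ATP synthase, but its product, now named DMAC2, is an assembly factor for the membrane arm of complex I. The gene lies at chr7:25619414-25625551 (mm10, plus strand), its exons overlapped no other gene, and 0% of its 50-base windows were shared.

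Atp5sl stood at 63.4, 69.1 and 71.8 CPM in WT 4 h and at 98.1, 107 and 100.2 CPM in KO 4 h. All WT libraries lay below all KO libraries at 4 h. The log2 fold change was -0.58 ± 0.072 (fold 0.671, edgeR adjusted p = 5.58e-05). At 0 h its levels were 105.1, 119.6 and 99.1 CPM in WT and 94, 103.4 and 84.6 CPM in KO, where the groups overlapped and the log2 fold change was 0.19 ± 0.085 (edgeR adjusted p = 0.369).

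The other members at 4 h leaned to higher values in WT without passing the test. The median log2 fold change was 0.064 in the members and 0.005 in all genes, and 61 of 81 members were above 0, against 5668 of 11123 genes. Split by role, 61 of the 75 subunit genes (median 0.074) and 0 of the 6 assembly or accessory factors (median -0.134) were above 0. Atp5sl was among these 6. Of 26 listed assembly factors outside the members, 10 were above 0, with a median of -0.037. All members were read in the same 3 libraries per group, where their summed levels overlapped, so these signs are not independent of each other. Groups did not overlap for 7 members (8.64%), against 27.9% of all genes. The 95% interval lay within ±0.5 for 66 members (81.5%) and for 61.9% of all genes.

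The values nearest to the threshold after Atp5sl came from complexes I, II and IV. Sdhc stood at 77.5, 65.8 and 73.2 CPM in WT 4 h and 62.4, 64.5 and 62 CPM in KO 4 h, with a log2 fold change of 0.20 ± 0.077 (edgeR adjusted p = 0.13). Ndufa3, an accessory subunit of complex I, followed with 0.21 ± 0.086 (adjusted p = 0.154). Ndufa1, another accessory subunit of the complex I membrane arm, was at 36.8, 24.7 and 29.5 CPM against 23.4, 24.9 and 26.1 CPM (0.29 ± 0.132, adjusted p = 0.206). Ndufb5 gave 0.18 ± 0.083 (adjusted p = 0.209). Cox5b was at 28.4, 24.4 and 26.5 CPM against 17.3, 24.1 and 23.8 CPM, with 0.28 ± 0.135 (adjusted p = 0.231). The groups did not overlap for Sdhc, Ndufb5 and Cox5b and overlapped for Ndufa3 and Ndufa1. One library weighed on this count. Without WT 4 h replicate 2, the edgeR test called 5 members (6.17%), against 12.1% of all genes. Of these members, Atp5d, Ndufa1, Sdhb and Sdhc were higher in WT and Atp5sl was lower.

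**Figure D3:**
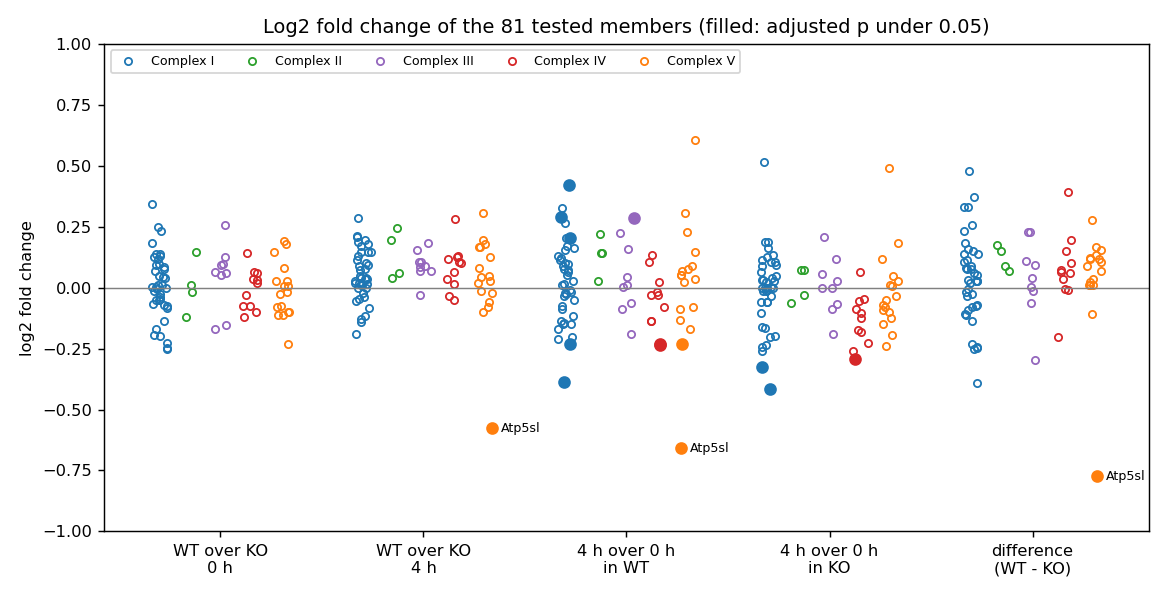
Log2 fold change of the 81 tested members in 5 comparisons, coloured by complex, where filled points have an edgeR adjusted p under 0.05 and the last column subtracts the change in KO culture from that in WT culture. Most points lie within ±0.5, and Atp5sl lies lowest at 4 h (-0.58), in WT culture (-0.66) and in the difference (-0.77).

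Culture of WT cells for 4 h changed 10 of the 81 members (12.3%), against 33.1% of all 11572 genes tested. Of these, 4 rose (15.1% of all genes rose) and 6 fell (18.0% of all genes fell). None changed more than 2-fold. Among those that rose were the complex I genes Ndufa10 and Ndufv1 and the complex III gene Uqcrc2. Those that fell were Atp5sl, Ndufv3, Ndufb10, Cox6a1, Cox8a and Atp5e. The median log2 fold change was 0.023 in the members and 0.005 in all genes.

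The 4 members that rose in WT had mRNAs of 1528.5 to 2020 bases. Ndufa10, an accessory subunit of complex I (chr1:92439010-92473860), went from 45.8, 39.1 and 43.9 CPM at 0 h to 58.1, 58.8 and 55.9 CPM at 4 h. Its groups did not overlap, and the log2 fold change was 0.42 ± 0.087 (edgeR adjusted p = 0.000729). It was also the member with the first of the cAMP response elements printed above, while the other members with that motif did not pass the test, with 0.21 ± 0.093 for Ndufa11 (adjusted p = 0.0966), 0.01 ± 0.087 for Uqcrfs1 and -0.14 ± 0.124 for Ndufb2.

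Uqcrc2, a core protein of complex III (chr7:120635176-120659524), stood at 85.2, 91.4 and 94.8 CPM at 0 h and 120.4, 102.3 and 108.8 CPM at 4 h in WT cells. Each cultured library lay above each uncultured one (0.29 ± 0.070, edgeR adjusted p = 0.00305). Exons of Uqcrc2 overlapped those of Pdzd9 over 19.7% of their length. Ndufv1, which carries the NADH site, was at 60.9, 47.7 and 49.7 CPM and then at 62.4, 62.9 and 67.8 CPM (0.29 ± 0.096, adjusted p = 0.0235).

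Several central subunits had positive values in WT culture without passing the test, with log2 fold changes of 0.22 ± 0.092 for Sdhd (edgeR adjusted p = 0.07), 0.23 ± 0.094 for Uqcrc1 (0.0712), 0.14 ± 0.063 for Sdha (0.0925) and 0.16 ± 0.078 for Cyc1 (0.129). These calls depended on the fit. With the replicate number as a block, Sdhd (adjusted p = 0.0404), Uqcrc1 (0.0443) and Sdha (0.0393) passed. The count was then 13 (16%, against 34.4% of all genes), with 7 higher and 6 lower. With library totals alone, all 4 passed (Cyc1 at 0.0104).

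The deepest fall in WT culture was that of Atp5sl, from a mean of 107.9 ± 10.6 to 68.1 ± 4.29 CPM. The log2 fold change was -0.66 ± 0.084 (fold 0.634, edgeR adjusted p = 2.42e-06). Ndufv3 (chr17:31520115-31531331) went from 47.3, 48.3 and 47.2 CPM to 39.4, 31 and 38.6 CPM, with no overlap (-0.39 ± 0.109, adjusted p = 0.00885). The mRNA of Atp5sl had 1926 bases, within the range of the members that rose. The other members that fell, like Ndufv3, had mRNAs of 421 to 732 bases.

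Among these, Cox6a1 (chr5:115345642-115348981), a nuclear-encoded subunit of complex IV, stood at 217.5, 213.1 and 231.7 CPM at 0 h and 205.9, 164.4 and 194 CPM at 4 h (-0.23 ± 0.075, edgeR adjusted p = 0.0224). Cox8a, another small subunit of complex IV, went from 85.4, 84.9 and 91 CPM to 82.9, 64.7 and 74.5 CPM (-0.24 ± 0.085, adjusted p = 0.0387). In both, the library WT 4 h replicate 2 was lowest and the groups did not overlap. Atp5e was at 181.3, 192.7 and 186 CPM and then at 185.7, 135.9 and 155.8 CPM, where the groups overlapped (-0.23 ± 0.088, adjusted p = 0.0476). Ndufb10 went from 68.1, 72.9 and 75 CPM to 63.4, 60.7 and 60.2 CPM (-0.23 ± 0.080, adjusted p = 0.0311).

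The balance of rises and falls in WT culture depended on how libraries were scaled. With library totals alone, 17 members rose and 2 fell, against 3001 and 1500 of all genes. In that fit 23.5% of the members and 38.9% of all genes were called, and the median over all genes shifted to 0.114 on the log2 scale. The count also rested on single libraries. Without WT 0 h replicate 2, 6 members were called (7.32%, against 29.1% of all genes). Without WT 4 h replicate 3, 5 were called (6.1%, against 27.7%). Without WT 4 h replicate 2, 8 members rose and 1, Atp5sl, fell, against 1583 and 1918 of all genes. In that fit the values were -0.14 for Cox6a1 (edgeR adjusted p = 0.144), -0.15 for Cox8a (0.201), -0.13 for Atp5e (0.254), -0.22 for Ndufb10 (0.0721) and -0.29 for Ndufv3 (0.0579), so of the 6 falls only that of Atp5sl kept its call. Of 856 genes with mRNAs under 1 kb, 25.5% were called in WT culture, and their median log2 fold change was -0.052. The part of mRNA length in the members' values was not tested.

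Culture of KO cells changed 3 of 81 members (3.70%), against 23.3% of all 11572 genes. All 3 fell, against 13.0% of all genes that fell. By edgeR 0 members rose, against 10.3% of all genes. At an unadjusted p under 0.05 in either direction there were 12 of 81 members, against 3965 of all 11572 genes. Cox6a1 went from 218.3, 205.3 and 221.4 CPM to 157.5, 181.1 and 187.7 CPM (-0.29 ± 0.076, edgeR adjusted p = 0.00709). It was also called in WT culture, and was the one member called in both genotypes. Every cultured KO library lay below every uncultured one.

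Ndufa13, also known as GRIM-19, an accessory subunit of complex I, stood at 109.1, 109.6 and 107.2 CPM in KO 0 h and 75.5, 89.9 and 94.3 CPM in KO 4 h (-0.33 ± 0.089, edgeR adjusted p = 0.0102). Its uncultured KO libraries were tightly grouped and the cultured ones all lower. Exons of Ndufa13 overlapped those of Tssk6. Ndufa1 went from 33.6, 31.3 and 34.3 CPM to 23.4, 24.9 and 26.1 CPM (-0.42 ± 0.124, adjusted p = 0.018), again with no overlap. These calls rested in part on KO 4 h replicate 1, the library with the lowest summed level. Without it edgeR called 0 members, against 17.6% of all genes, with 6 members at an unadjusted p under 0.05. Without KO 4 h replicate 3 it called 6 members (7.32%), against 18.5% of all genes. With library totals alone, 4 members rose and 3 fell in KO culture, against 2168 and 1101 of all genes. With the replicate number as a block, 1 member rose and 5 fell, against 1253 and 1606 of all genes. Cox4i1 (-0.17, adjusted p = 0.0336) and Cox8a were among those that fell.

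The member that rose in that fit was Ndufaf2, a complex I assembly factor, which also had the largest log2 fold change of any member tested in KO culture without the block. It stood at 10.6, 11.3 and 10.5 CPM in KO 0 h and 14.5, 17.5 and 14.1 CPM in KO 4 h, and the groups did not overlap. The log2 fold change was 0.51 ± 0.190 (edgeR adjusted p = 0.0546), which missed the threshold. It passed with the block (adjusted p = 0.0207), in a fit of the KO libraries alone (0.0114) and with library totals alone (0.0231). Exons of Ndufaf2 overlapped those of B230220B15Rik over 65.6% of their length.

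Ndufa10, Ndufv1 and Uqcrc2, which rose in WT culture, did not pass the test in KO culture. The log2 fold change in KO was 0.19 ± 0.087 for Ndufa10 (edgeR adjusted p = 0.137), 0.19 ± 0.098 for Ndufv1 (0.188) and 0.06 ± 0.071 for Uqcrc2 (0.615). With library totals alone, Ndufa10 (0.28, adjusted p = 0.0237) and Ndufv1 (0.28, adjusted p = 0.0398) passed in KO culture too. For Ndufa10 the KO libraries stood at 48.4, 47.6 and 53.9 CPM at 0 h and 51.4, 60.7 and 58.3 CPM at 4 h, so the groups overlapped. The means of Ndufa10 at 4 h were 57.6 ± 1.51 CPM (WT) and 56.8 ± 4.85 CPM (KO), and those at 0 h were 43 ± 3.47 and 50 ± 3.47 CPM, where the log2 fold change of WT over KO was -0.23 ± 0.092 (adjusted p = 0.316).

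**Figure D4:**
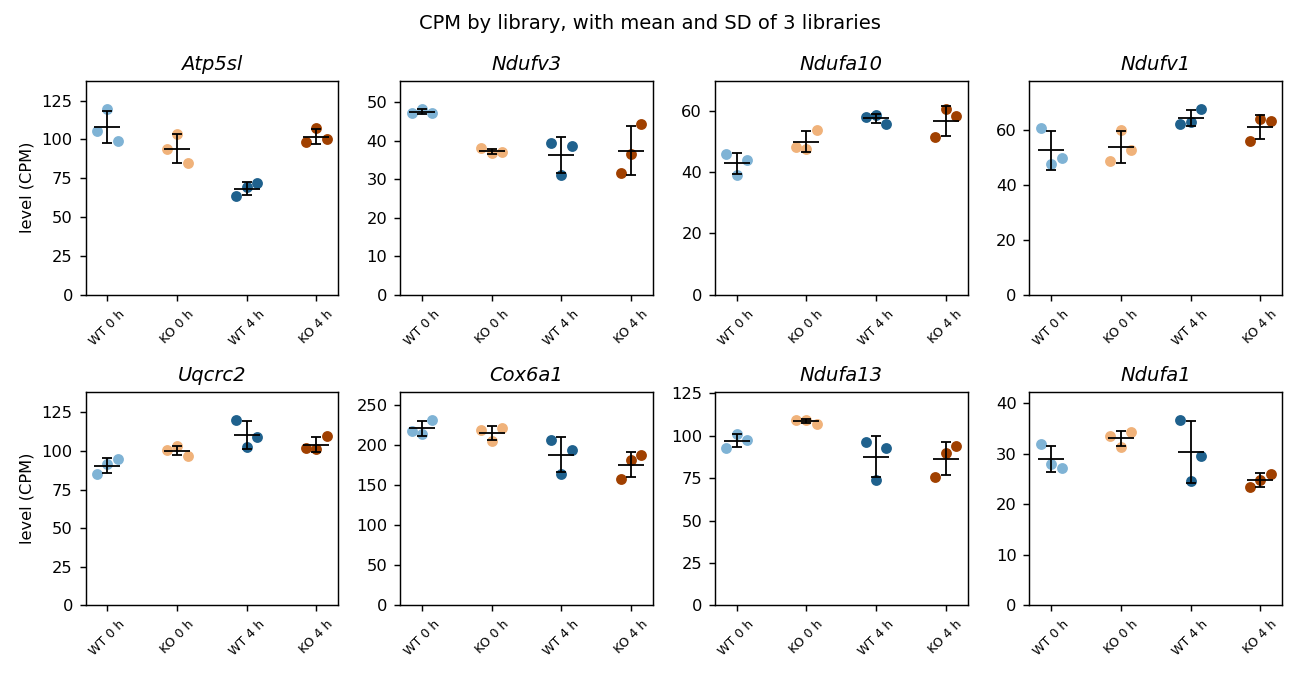
Level in CPM of 8 members in each library, with the mean and SD of 3 libraries per group. Atp5sl is lower in WT 4 h (63.4 to 71.8 CPM) than in any other group, and Cox6a1 is lower after culture in both genotypes.

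Whether culture acted differently in the 2 genotypes was tested as an interaction, in which the KO change is subtracted from the WT change. Of 81 members, 1 was called (1.23%), against 6.39% of 11572 genes. This was again Atp5sl, with -0.77 ± 0.118 (95% interval -1.02 to -0.53, edgeR adjusted p = 0.000149). In KO cells the gene stood at 94.0 ± 9.39 CPM before and 101.8 ± 4.63 CPM after culture, with a log2 fold change of 0.12 ± 0.083 (adjusted p = 0.348). The fall of Atp5sl in WT was therefore larger than its change in KO beyond the spread of the libraries. This difference shares its WT 4 h and KO 4 h libraries with the 4 h comparison, so the pair of calls is not independent.

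No other member passed the interaction test. The next in p were Ndufa11 with 0.37 ± 0.132 (edgeR adjusted p = 0.113) and Ndufa1 with 0.48 ± 0.173 (adjusted p = 0.12). Ndufa10 gave 0.23 ± 0.123 (0.344), Uqcrc2 0.23 ± 0.099 (0.223) and Ndufv3 -0.39 ± 0.156 (0.18), so calls in 1 genotype only were not shown to differ between genotypes. The median over the members was 0.063, against -0.001 over all genes. The 95% interval lay within ±0.5 for 57 members (70.4%) and for 43.3% of all genes, and for the others, Atp5sl among them, it reached beyond that size. Over all 5 comparisons, 69 of the 81 members were called in none.

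The genes that build and serve the chain were read from lists alongside the members. Of 41 listed assembly factors outside the members, 26 were in the tables. In WT culture 3 of 26 were called (11.5%, against 33.1% of all genes), where Sdhaf1 and Ttc19 rose and Cox17 fell. In KO culture 3 of 26 were called (11.5%, against 23.3%), where Sdhaf1 and Cox15 rose and Sdhaf2 fell. Between genotypes at 4 h 1 of 26 was called (3.85%, against 10.9%). Sdhaf1, which helps insert iron-sulfur clusters into complex II, rose by 1.06 ± 0.140 on the log2 scale in WT (edgeR adjusted p = 3.73e-06) and by 0.70 ± 0.150 in KO (adjusted p = 0.00144), and was higher in WT at 4 h by 0.56 ± 0.119 (adjusted p = 0.00548).

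Of 15 electron carrier genes, 1 was called in WT culture (6.67%, against 33.1% of all genes) and 2 in KO culture (13.3%, against 23.3%). Coq10b, which encodes a coenzyme Q-binding protein, was higher in WT than in KO at 4 h by 1.05 ± 0.203 (edgeR adjusted p = 0.00264). It fell in KO culture (-0.97 ± 0.195, adjusted p = 0.000821), and its interaction was 1.24 ± 0.265 (adjusted p = 0.00452). Cytochrome c (Cycs) fell in KO culture (-1.05 ± 0.359, adjusted p = 0.0383). In the interaction 1 of the 15 was called, which was Coq10b, so the fall of Cycs was not shown to differ between genotypes.

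Of 12 tested regulators of mitochondrial biogenesis, 3 were called in each culture comparison, or 25%, against 33.1% of all genes in WT and 23.3% in KO. Ppargc1b, a coactivator of respiratory genes, fell in WT (-0.75 ± 0.158, edgeR adjusted p = 0.000865) and in KO (-1.16 ± 0.164, adjusted p = 1.64e-05). Esrra, the nuclear receptor ERRα, fell in KO (-0.85 ± 0.153, adjusted p = 0.000258), as did Tfam, while in WT Ppargc1a fell and Gabpa rose. Between genotypes at 4 h 0 of 12 were called by edgeR, against 10.9% of all genes. At an unadjusted p under 0.05 there were 2 of 12, against 2578 of all 11123 genes.

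In the Krebs cycle list, 4 of 17 were called in WT culture (23.5%, against 33.1% of all genes). In KO culture 1 was called (5.88%, against 23.3%), and between genotypes at 4 h 2 were called (11.8%, against 10.9%). Fh1, fumarate hydratase, rose in KO culture (0.51 ± 0.071, edgeR adjusted p = 1.62e-05) and had a negative interaction (-0.46 ± 0.100, adjusted p = 0.00542). Of 8 tested nucleotide and phosphate carrier genes, 2 were called in WT culture (25%, against 33.1% of all genes). In KO culture 3 were called (37.5%, against 23.3%), and between genotypes at 4 h 2 were called (25%, against 10.9%). Slc25a3, which imports the phosphate used by complex V, rose in WT (0.56 ± 0.058, adjusted p = 1.14e-07) and in KO (0.30 ± 0.058, adjusted p = 0.000554), and the uncoupling protein gene Ucp2 fell in both.

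Mitochondrial ribosomal proteins were called in 11 of 76 cases in WT culture (9 rose, 2 fell) and 6 of 76 in KO culture (4 rose, 2 fell), and protein import genes in 2 of 21 and 0 of 21 (by edgeR). Cytosolic ribosomal proteins, another class of short, abundant mRNAs, were called in 7 of 81 and 5 of 81. In each of these ribosomal and import lists the share called lay below that of all genes in the same culture comparison, as it did for the members. By contrast, 6 of the 9 B cell markers were called in WT culture (1 rose, 5 fell) and 9 of 9 in KO culture (2 rose, 7 fell).

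**Figure D5:**
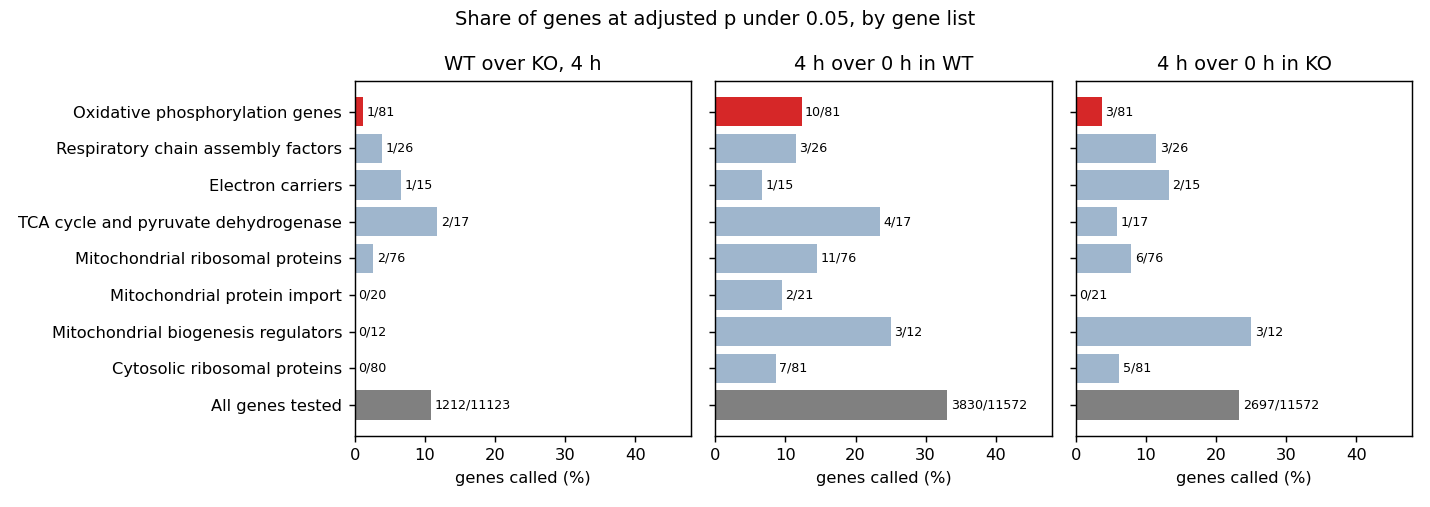
Percent of genes with an edgeR adjusted p under 0.05 in the members, in 7 related gene lists and in all genes tested, for WT over KO at 4 h and for culture in each genotype, with the number called and tested beside each bar. The members lie at 1.23%, 12.3% and 3.70%, against 10.9%, 33.1% and 23.3% of all genes. The list of nucleotide and phosphate carriers is not drawn.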

How the data were processed

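RNA from sorted splenic follicular B cells was sequenced by the authors as 50-base single-end reads after whole-transcriptome amplification. Per the submitters' processing notes, reads were aligned to mm10 with STAR and counted with HTSeq, and DESeq2 was used. The strand setting, annotation and tool versions are not given in the sources used here. The files deposited by the authors hold raw counts of reads for each gene, without normalization, in 1 table for each time. The smallest row sum was 10 counts in each table, so lower genes were not listed.

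The members and gene lists were chosen with earlier results of these data known. Genotypes were compared within each table (6 libraries), and culture and the interaction in a 4-group fit over the genes in both tables. Counts were filtered with filterByExpr, scaled by TMM and tested with edgeR 4.0.16 (glmQLFit, glmQLFTest) in R 4.3.3. P-values were adjusted over all genes tested by the Benjamini-Hochberg method and called at 0.05. Alternatives were DESeq2 1.42.0, other scalings, no filter, other groups in the fit, a replicate block and leaving out each library. The script was tested on simulated data. The text names central subunits and isoform families, members under the filter, every called member (1 item is not reported here), and the 3 highest and 3 lowest of each complex in CPM per kb. Values added after they were seen are those nearest to a threshold, the members with the cAMP response element, and the listed genes outside the members.

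Library totals were 6098941 to 11618787 counts. The median standard error (log2) over the members was 0.0887 between genotypes at 0 h, 0.0942 between them at 4 h and 0.132 in the interaction. These standard errors come from the quasi-likelihood fit, which uses the spread between libraries. No molecular identifiers were used, so the counts are of reads. The series describes 3 mice per genotype, so the libraries numbered alike at 0 h and 4 h may come from 1 mouse, but no label says so for each library. Over genes, deviations of same-numbered libraries correlated at 0.126, 0.0718 and 0.117 in WT and -0.0402, 0.145 and 0.152 in KO. The fit without a block was kept, and blocked values are given where they change a call. With 3 libraries against 3, a permutation test cannot go below 0.1. Replicate libraries all differed by more than sampling noise. Positions and mRNA lengths came from GENCODE M21 (83 members matched) and promoters from RefSeq GRCm38.p6.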

Additional observations from a re-analysis of the deposited data

Results flagged for a closer look

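Atp5sl, the gene for the complex I assembly factor DMAC2, differed in its response to culture between the genotypes. Its change in WT culture less that in KO culture was -0.77 on the log2 scale, and the test of that difference passed the threshold (edgeR adjusted p = 0.000149). The gene was lower in WT 4 h than in every library of the other groups, 63.4 to 71.8 CPM against 84.6 to 119.6 CPM. Its call held in all 17 alternatives of the interaction, with log2 values of -0.84 to -0.69.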

How the results depend on the processing

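No called value of a single member changed sign under any alternative, but balances and sums did turn with library totals alone, which gave 17 higher and 2 lower in WT culture (against 4 and 6). On that scale the summed level was 5831.7 ± 151.5 CPM in WT 0 h, under the 5967.9 ± 191.4 CPM of KO 0 h, and 6176.4 ± 347.5 CPM in KO 4 h, where TMM put WT 0 h above and KO 4 h below KO 0 h. Atp5sl kept its call in all 12 alternatives in WT culture and all 12 at 4 h, as did Ndufa10 and Uqcrc2 in WT culture. Of 185 values for single members, 34 fell short of the threshold, among them Atp5e in WT culture in 7 of 12 alternatives (adjusted p up to 0.254) and Cox8a in 6 of 12. Library totals alone gave 19 members in WT culture (against 10), 7 in KO culture (against 3) and a summed level of 5831.7 CPM in WT 0 h (against 6122.6 CPM). A fit of the 2 groups compared gave 8 in KO culture, and the replicate block gave 6 there and 13 in WT culture. Leaving out 1 library gave 5 to 13 members in WT culture, 0 to 6 in KO culture, 1 to 5 between genotypes at 4 h and 1 to 2 for the interaction (Ndufa1 joined Atp5sl without WT 4 h replicate 2). The cause of these moves was not tested. In each fit named here, the share of members called lay below that of all genes.

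In the check of pairing, each WT library correlated best with its own number, as did KO replicates 2 and 3 but not KO replicate 1. The block moved no other count of calls by over 1.5 times. Depth limits the low members: intervals of Atp5g1 and Atp5g2, at under 6 CPM, reach beyond ±0.5.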
